A study of Mus musculus with 2 samples.

Results

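The 10 genes described here encode transcription factors that set adipocyte identity: Pparg, Ppara, Ppard, Rxra, Rxrg, Cebpa, Cebpb, Prdm16, Ebf1 and Ebf2. They were chosen by gene symbol and not by a cut on their values, though with earlier results of these data known. They are 10 of the 32285 genes counted in the series. The data are single-nucleus RNA sequencing of interscapular brown adipose tissue (BAT) from male mice aged 8 weeks, with 1 library per genotype. The WT library came from Srsf1 flox/flox mice without Cre. The KO library came from Srsf1 flox/flox littermates carrying Adipoq-Cre, in which the adiponectin promoter drives Cre, so that only cells that have switched on Adipoq lose the splicing factor SRSF1. How many mice went into a library is not given in the sources used here. With 1 library per genotype the differences below compare 2 libraries, carry no test, and have intervals (95%) that cover counting error only.

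PPARG is the nuclear receptor without which no adipocyte forms, and CEBPA works with it to switch on and hold the general adipocyte programme. Both act in white and brown fat. CEBPB comes on early in adipogenesis and also serves the thermogenic programme. PPARs bind DNA as partners of the retinoid X receptors, of which RXRA is widespread and RXRG is more restricted. PRDM16, EBF2 and PPARA are the brown-selective members: PRDM16 is a coregulator that holds brown fate, EBF2 recruits PPARG to brown-selective genes, and PPARA drives fatty acid oxidation. EBF1 is a close relative of EBF2 that is found in white and brown adipocytes and in their precursors, and PPARD is expressed in most tissues.

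The genes differ in structure in a way that matters for nuclear RNA. In the GENCODE annotation of GRCm38, Cebpa (chr7:35119293-35121928, + strand) and Cebpb (chr2:167688915-167690418, + strand) are single-exon genes of 2636 and 1504 bases. Ebf1 (chr11:44617317-45008091, + strand) spans 390775 bases, of which 9756 are exonic. Prdm16 (chr4:154316125-154636873, - strand) spans 320749 bases with 9321 exonic. Ebf2 (chr14:67233292-67430918, + strand) spans 197627 bases and Pparg (chr6:115360951-115490399, + strand) 129449 bases. Ppara lies at chr15:85734983-85802819, Ppard at chr17:28232700-28301474, Rxra at chr2:27676440-27762957 and Rxrg at chr1:167598384-167639623, all on the + strand. Whether intronic reads were counted is not given in the sources used here, so levels are compared between libraries and classes for 1 gene at a time and not between genes. Antisense genes are annotated within Pparg, Cebpa, Cebpb, Prdm16, Ebf1 and Ebf2, and use of strand in counting is not stated.

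The promoter windows below, from RefSeq on GRCm38.p6, are a selection: in KO adipocyte nuclei 3 of these genes were lower, 1 was the lowest of the 10 members and 1 was higher. Each is the 250 bases before an annotated start, 5′ to 3′ on the strand of the gene. A window was found for 9 of the 10 genes. Capitals mark matches on either strand to AGGTCA (the core site of nuclear receptors such as PPAR and RXR), TTGCNNAA (C/EBP) or CCCNNGGG (EBF). These are letter matches and not measured binding.
Pparg, downstream start, chr6:115421816-115422065, +: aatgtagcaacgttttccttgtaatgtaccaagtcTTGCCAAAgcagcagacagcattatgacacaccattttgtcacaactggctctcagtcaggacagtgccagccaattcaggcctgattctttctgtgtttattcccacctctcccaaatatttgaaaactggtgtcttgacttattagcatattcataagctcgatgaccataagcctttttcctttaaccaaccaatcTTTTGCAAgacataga
Prdm16, chr4:154636874-154637123, -: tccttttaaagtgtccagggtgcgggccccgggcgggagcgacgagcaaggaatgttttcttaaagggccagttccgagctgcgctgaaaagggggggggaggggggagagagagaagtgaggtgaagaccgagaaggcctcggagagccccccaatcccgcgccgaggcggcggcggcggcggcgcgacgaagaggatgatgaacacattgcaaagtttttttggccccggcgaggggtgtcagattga
Cebpb, chr2:167688665-167688914, +: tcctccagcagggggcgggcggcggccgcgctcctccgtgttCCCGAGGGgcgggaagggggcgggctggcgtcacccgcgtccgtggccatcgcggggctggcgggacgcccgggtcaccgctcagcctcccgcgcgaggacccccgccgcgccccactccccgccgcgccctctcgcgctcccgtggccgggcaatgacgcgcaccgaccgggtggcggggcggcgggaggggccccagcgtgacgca
Rxrg, downstream start, chr1:167618015-167618264, +: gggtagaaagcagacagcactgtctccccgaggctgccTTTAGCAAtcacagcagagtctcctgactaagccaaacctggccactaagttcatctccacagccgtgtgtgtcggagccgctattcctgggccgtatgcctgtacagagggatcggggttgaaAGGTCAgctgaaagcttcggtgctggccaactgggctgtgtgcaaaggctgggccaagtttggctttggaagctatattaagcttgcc
Rxra, downstream start, chr2:27709042-27709291, +: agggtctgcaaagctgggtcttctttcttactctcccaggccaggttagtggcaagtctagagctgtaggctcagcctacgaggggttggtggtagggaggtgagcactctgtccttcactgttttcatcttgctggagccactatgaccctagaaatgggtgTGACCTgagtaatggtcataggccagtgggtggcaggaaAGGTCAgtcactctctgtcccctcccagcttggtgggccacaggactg

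The downstream Pparg window, at the start of the adipocyte isoform PPARG2, held 2 matches to TTGCNNAA, with leftmost bases 215 and 16 bases before the start. The downstream Rxrg window held 1 match to TTGCNNAA at 212 and 1 to AGGTCA at 88 bases before its start. The downstream Rxra window held 2 AGGTCA matches, at 87 and 48 bases. The upstream windows of these genes are not printed. Those of Rxra and Rxrg held no match to any of the 3, and each upstream Pparg window held 1 match to AGGTCA. The Cebpb window held 1 CCCNNGGG match at 208 bases, and the Prdm16 window held no match to any of the 3. The window of Ppara, which was also lower in KO adipocyte nuclei, is not printed and held 1 CCCNNGGG match at 126 bases. Over all 32817 such windows in the table, 14.0% held AGGTCA, 9.57% held TTGCNNAA and 11.8% held CCCNNGGG, with no overlap between matches of different motifs in the windows printed. Among the 14 windows of the members, 4 held AGGTCA, 2 held TTGCNNAA and 2 held CCCNNGGG.

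The libraries held 12846 (WT) and 11495 (KO) barcodes with 93102814 and 80090208 UMIs, and shared 52 barcode sequences. The median mitochondrial share was 1.10% in WT and 0.0491% in KO, and its part in the results was not tested. After filtering, 12771 and 11378 nuclei were assigned to classes by sums of marker genes, none of which is a member. Adipocyte nuclei numbered 3784 (WT) and 2307 (KO), and adipose stem and progenitor cell (ASPC) nuclei 474 and 1735. There were 2454 and 1319 endothelial, 757 and 3403 immune, and 485 and 286 mural nuclei (smooth muscle and pericytes). Another 4677 and 2272 nuclei were not assigned. All 7 adipocyte markers were detected in both libraries and stood 1.93 to 3.48 times higher in WT adipocyte nuclei than in the other classes, against 10.8 to 23.1 times in KO. Srsf1 itself was at 189 counts per 1000000 UMIs of the class (CPM) in WT adipocyte nuclei and 62.7 CPM in KO. Its log2 ratio there was -1.59, and -0.67 to -0.84 in ASPC, endothelial, immune and mural nuclei. Which exons the deletion removes is not given in the sources used here, so 3′ reads of a deleted allele may still be counted.

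Free RNA was gauged with 8 adipocyte genes: Ucp1, Cidea, Plin5, Adrb3, Otop1, Gpd1, Pck1 and Tshr. In WT ASPC nuclei these genes stood at 38.0% to 56.5% of their level in adipocyte nuclei of the same library (median 42.4%). In KO ASPC nuclei they stood at 4.7% to 13.5% (median 8.39%). The same ranges were 11.1% to 40.1% (WT) and 10.1% to 40.8% (KO) in endothelial nuclei, with medians of 31.6% and 13.0%. Immune nuclei had medians of 35.2% and 5.50%, and mural nuclei of 49.3% and 23.3%. A factor found in these classes at the gauge level or below it is read here as background. The gauge does not tell free RNA from nuclei that share a droplet.

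The general factors did not move together in adipocyte nuclei. Pparg was at 5288 CPM in WT (177539 UMIs) and 2534 CPM in KO (49662 UMIs), 2.09-fold lower, a log2 ratio of -1.06 (-1.08 to -1.05). Cebpa was at 23.9 CPM in WT (804 UMIs) and 29.1 CPM in KO (570 UMIs), a log2 ratio of 0.28 (0.12 to 0.44). The KO library therefore held less Pparg RNA relative to all RNA in adipocyte nuclei and a Cebpa level within 2-fold of WT. The median log2 ratio over the 14953 genes with at least 50 UMIs was 0.17, and relative to it Pparg stood at -1.23 and Cebpa at 0.11. Adipocyte nuclei were also split by depth into 3 bins of equal size over both libraries (bounds of 6089 and 8369 UMIs). Cebpa stood at 0.18 in the shallowest bin, -0.02 in the middle and 0.41 in the deepest, while Pparg stood at -1.02, -1.06 and -1.07.

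Summed over all adipocyte nuclei, the 3 brown-selective factors were lower in KO by nearly the same factor. Prdm16 was at 725 CPM in WT and 249 CPM in KO, 2.91-fold lower, a log2 ratio of -1.54 (-1.59 to -1.50). Ebf2 was at 1732 CPM in WT and 585 CPM in KO, 2.96-fold lower, a log2 ratio of -1.57 (-1.60 to -1.54). Ppara was at 2688 CPM in WT and 893 CPM in KO, 3.01-fold lower, a log2 ratio of -1.59 (-1.61 to -1.57). The intervals of Ebf2 overlap those of both others, while each lies below the interval of Pparg. Relative to the median of all genes they stood at -1.71, -1.73 and -1.76. Within depth bins the 3 were less alike. In the shallowest bin Prdm16, Ebf2 and Ppara stood at -1.24, -1.63 and -1.22. In the deepest they stood at -1.65, -1.51 and -1.76, so Ebf2 went from the lowest of the 3 ratios to the highest.

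Set against each other, the median of the brown-selective factors was -1.57 and the mean of Pparg and Cebpa was -0.39, so the brown-selective factors were lower by 1.18 on the log2 scale, that is, a contrast of -1.18. Most of that distance came from Cebpa. Against Pparg alone, Prdm16, Ebf2 and Ppara differed by -0.48, -0.51 and -0.53, and against Cebpa alone by -1.82, -1.85 and -1.87. Within a library the total cancels: there were 7.30 Pparg UMIs for each Prdm16 UMI in WT adipocyte nuclei and 10.2 in KO, and 1.97 against 2.84 for each Ppara UMI. The contrast was -0.82 among nuclei of the shallowest depth bin and -1.33 among those of the deepest.

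**Figure D1:**
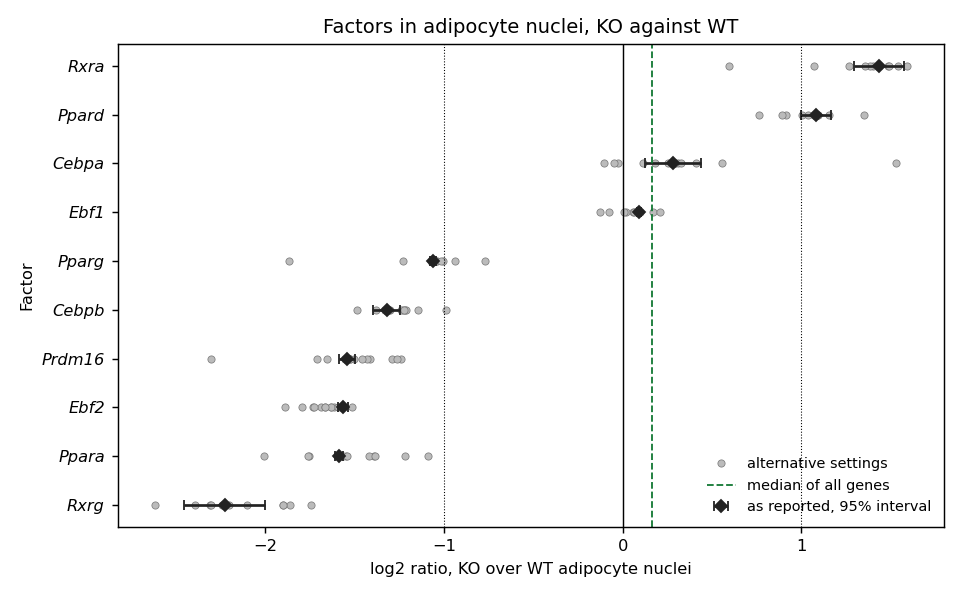
Log2 ratio of KO to WT level (CPM) of each factor in adipocyte nuclei, sorted, with black diamonds for the reported value and its 95% counting interval, grey points for the alternative settings, dotted lines at 2-fold and a green dashed line at the median of all genes (0.17). Rxrg, Ppara, Ebf2, Prdm16, Cebpb and Pparg lie at -1.06 or below, Ebf1 and Cebpa between 0 and 0.3, and Ppard and Rxra above 1.

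Of the 10 factors, 6 were at least 2-fold lower in KO adipocyte nuclei and 2 at least 2-fold higher. Over all genes with at least 50 UMIs, 15.7% were at least 2-fold lower and 24.5% at least 2-fold higher. The median log2 ratio of the 10 was -1.19. The 6 are Pparg, the brown-selective factors, Rxrg and Cebpb. Cebpb was at 222 CPM in WT and 88.9 CPM in KO, a log2 ratio of -1.32 (-1.40 to -1.24). Within the other and white-like nuclei described below, Cebpb stood at -1.22 and -0.99 and Cebpa at -0.05 and -0.10.

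The retinoid X receptors moved in opposite directions. Rxrg was at 43.9 CPM in WT adipocyte nuclei (1473 UMIs) and 9.39 CPM in KO (184 UMIs), a log2 ratio of -2.22 (-2.45 to -2.0), the lowest of the 10 members. Rxra was at 19.9 CPM in WT (669 UMIs) and 53.9 CPM in KO (1056 UMIs), a log2 ratio of 1.44 (1.29 to 1.58), the highest of the 10. WT adipocyte nuclei held 0.454 Rxra UMIs for each Rxrg UMI and KO nuclei 5.74, a 12.6-fold shift in the ratio. Rxrb, the remaining receptor of the family, was at 35.2 CPM in WT and 13.8 CPM in KO (-1.35). Ppard was at 62.3 CPM in WT and 132 CPM in KO, a log2 ratio of 1.08 (1.00 to 1.17) that stood at 0.92 relative to the median of all genes. The PPAR genes were therefore split, with Pparg and Ppara lower and Ppard higher.

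The EBF genes were split as well. Ebf1 was at 4163 CPM in WT adipocyte nuclei and 4437 CPM in KO, a log2 ratio of 0.09 (0.08 to 0.10) that became -0.08 relative to the median of all genes. There were 2.40 Ebf1 UMIs for each Ebf2 UMI in WT adipocyte nuclei and 7.59 in KO, a 3.16-fold shift. In ASPC nuclei the same ratio was 3.12 in WT and 3.40 in KO. Markers of other cell types also differed in adipocyte nuclei: the summed level of the 8 ASPC markers was 106 CPM in WT and 294 CPM in KO, and that of the 8 immune markers 143 and 401 CPM. In ASPC and immune nuclei of their own library those sums were 3837 to 5945 CPM and 5334 to 7953 CPM. Their part in the adipocyte values was not tested.

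The share of nuclei with at least 1 UMI comes from the same counts as the levels above and is not separate support. It is given here for Ebf2, Prdm16, Ppara, Pparg and Ebf1. Ebf2 was detected in 97.8% of 3784 WT adipocyte nuclei (median 7242 UMIs) and in 75.8% of 2307 KO nuclei (median 6621 UMIs). With each nucleus thinned to 1000 UMIs the shares were 74.8% (73.4% to 76.2%, exact binomial) of 3767 WT and 37.0% (35.0% to 39.0%) of 2284 KO nuclei, with 17 and 23 shallower nuclei left out. Immune nuclei, which should lack the gene (median 4250 UMIs in WT and 4193 in KO), gave 22.5% and 7.22% after thinning. By level, however, KO immune nuclei stood above the gauge maximum of 11.8% for Ebf2 (19.9%), Pparg (25.3%) and Ebf1 (12.1%), so for these 3 genes they are not an empty comparison. Prdm16 went from 49.9% to 21.2% of thinned adipocyte nuclei, with 11.2% and 1.02% in immune nuclei. Ppara went from 80.6% to 40.7%, with 29.1% and 3.53% in immune nuclei. Pparg went from 97.4% to 82.2%, with 59.3% and 37.9% in immune nuclei, and Ebf1 from 94.6% to 91.9%, with 52.0% and 28.8%. In all of these the adipocyte share stood above the immune share of the same library. The Ebf1 share was slightly lower in KO adipocyte nuclei, while its level was not.

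Adipocyte nuclei were also divided into 10 subclusters, with the 10 factors and the lists below left out of the genes used. The 2 libraries hardly shared a subcluster, and with 1 library per genotype such groups may be a library and not a cell state. In WT, 217 nuclei formed a white-like subcluster (Slc7a10 at 516 CPM, Lep at 105 CPM), set here against 3283 nuclei of 3 brown-like subclusters (Slc7a10 at 9.24 CPM, Lep at 7.06 CPM). In KO, 551 nuclei formed a white-like subcluster (Slc7a10 at 412 CPM, Lep at 146 CPM), set against 1406 nuclei of the unnamed main subcluster (33.5 and 38.8 CPM). Doublet-rich and mixed subclusters were left out of both. Also left out were a small white-like subcluster of 16 WT and 12 KO nuclei and an unnamed one of 19 KO nuclei.

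Within each library the white-like nuclei had less of the brown-selective factors. Ppara was at 1214 CPM in white-like and 2874 CPM in other WT nuclei, and at 301 and 1352 CPM in KO, log2 ratios of -1.24 and -2.17. Prdm16 was at 391 and 770 CPM in WT and at 159 and 321 CPM in KO, ratios of -0.98 and -1.01. Ebf2 was at 1113 and 1794 CPM in WT and at 336 and 594 CPM in KO, ratios of -0.69 and -0.82. Pparg differed less, with ratios of -0.43 and -0.26. Rxra was higher in white-like nuclei, at 59.5 against 15.6 CPM in WT and 89.9 against 32.7 CPM in KO, and so was Cebpa, at 47.9 against 22.3 CPM and 44.6 against 21.6 CPM. The Rxrg intervals differed between libraries: -0.85 to -0.14 in WT, with less in white-like nuclei, and -0.47 to 0.60 in KO.

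**Figure D2:**
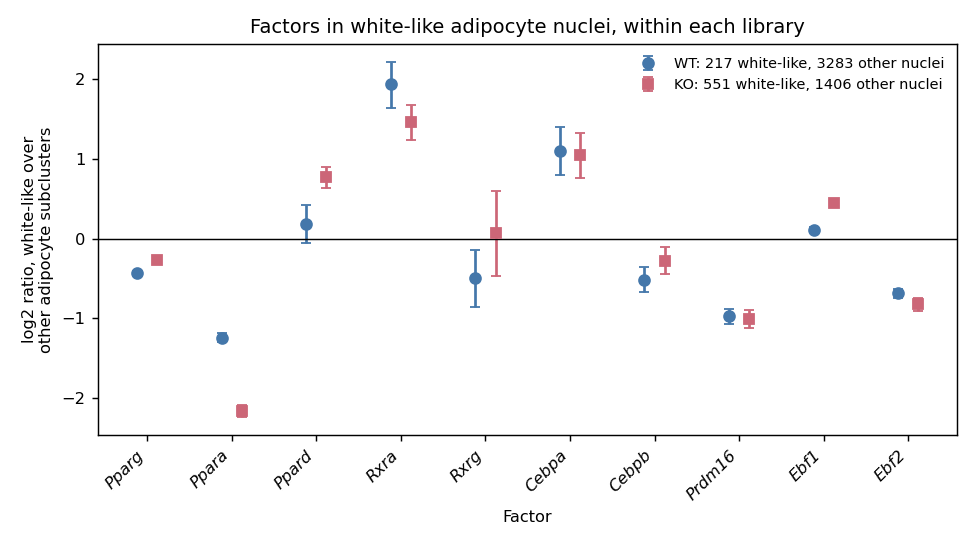
Log2 ratio of the level (CPM) of each factor in white-like over other adipocyte nuclei, computed separately in the WT (blue circles, 217 and 3283 nuclei) and KO (red squares, 551 and 1406 nuclei) libraries, with 95% counting intervals. Ppara, Prdm16, Ebf2, Pparg and Cebpb lie below 0 and Rxra, Cebpa and Ebf1 above 0 in both libraries.

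Compared between genotypes within these groups, the brown-selective factors remained lower in KO. Among the other nuclei the log2 ratios of KO to WT were -1.09 for Ppara, -1.26 for Prdm16 and -1.59 for Ebf2, and among white-like nuclei they were -2.01, -1.29 and -1.73. The value for Ppara depended on the WT subcluster. It was at 1585, 4352 and 3059 CPM in the WT brown-like subclusters (1639, 1384 and 260 nuclei), against 1352 CPM in the main KO one. Prdm16 (732 to 795 CPM) and Ebf2 (1681 to 1900 CPM) varied less between those WT subclusters, against 321 and 594 CPM in KO. WT white-like nuclei held Ucp1 at 34.5% and Ppara at 42.2% of the level in the other WT nuclei, near the WT gauge medians of other classes, and KO ones held 7.71% and 22.3%. The part of free RNA in the white-like values was not tested, since other gauge genes (Adrb3 at 149%, Tshr at 1803% in WT) were higher in white-like nuclei. Pparg stood at -0.94 among the other nuclei and -0.77 among white-like nuclei, in both cases short of 2-fold. Cebpa was level, at -0.05 (-0.29 to 0.19) and -0.10 (-0.44 to 0.24), so its higher value over all adipocyte nuclei was not found within either group. Rxra stood at 1.07 and 0.60, Rxrg at -2.30 and -1.75, and Ppard at 0.77 and 1.35. The brown-selective against general contrast was -0.77 among the other nuclei and -1.29 among white-like nuclei.

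Outside adipocytes the WT values of Ppara, Rxrg and Prdm16 lay close to the free RNA gauge. Ppara stood at 35.4% of its adipocyte level in WT ASPC nuclei, 19.9% in endothelial and 28.7% in immune nuclei, at or below most of the 8 gauge genes. In KO it stood at 8.61%, 10.0% and 5.70%, within the gauge range or just below it. Lower KO values of Ppara in these classes, such as 952 to 76.9 CPM in ASPC nuclei, are therefore values at background. Rxrg, at 18.8 CPM in WT and 0.692 CPM in KO ASPC nuclei (65 and 7 UMIs), lay within the gauge in both. Mural nuclei stood higher within the gauge. There Ppara was at 50.1% of its adipocyte level in WT and 33.8% in KO, above 5 and 7 of the 8 gauge genes. Rxrg in KO mural nuclei was at 49.7%, above all 8, from 7 UMIs. In Schwann-like nuclei Rxrg was at 69.4 CPM in WT (100 nuclei, 47 UMIs) and 69.1 CPM in KO (34 nuclei, 14 UMIs), above its adipocyte level in both libraries. The KO Schwann-like nuclei also carried summed immune markers of 2433 CPM and ASPC markers of 2068 CPM, against 291 and 566 CPM in WT, and their part in this value was not tested.

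**Figure D3:**
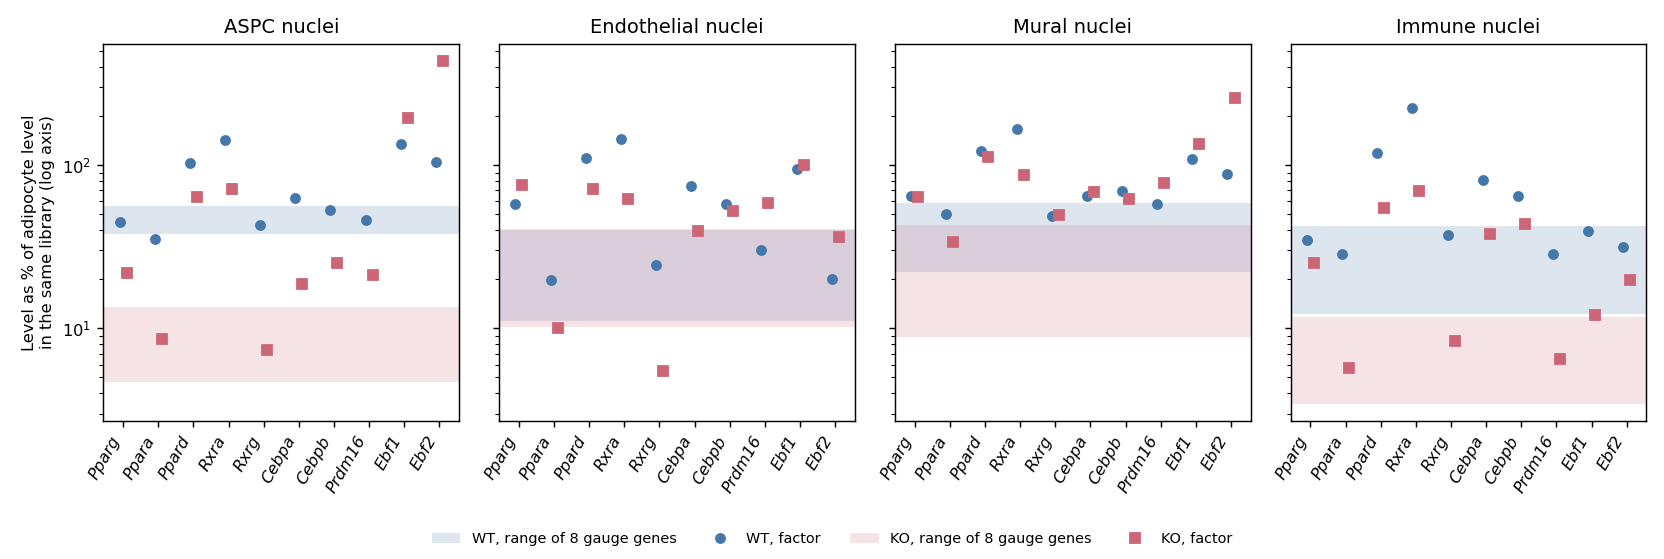
Level of each factor in ASPC, endothelial, mural and immune nuclei as a percentage of its level in adipocyte nuclei of the same library (log axis), with WT as blue circles, KO as red squares, and bands for the range of the 8 free RNA gauge genes in each library. Ebf1 and Ebf2 lie above the bands in ASPC and mural nuclei of both libraries, and Pparg in endothelial and mural nuclei.

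ASPCs, the cells from which new adipocytes arise, carried Ebf1 and Ebf2 at levels well above the gauge, and over all ASPC nuclei both were higher in KO. Ebf2 was at 1800 CPM in WT ASPC nuclei (1756 to 1846) and 2542 CPM in KO (2511 to 2573), a log2 ratio of 0.50 (0.46 to 0.54). Over all nuclei of the class this is the opposite direction to adipocyte nuclei. In WT the ASPC level of Ebf2 was 104% of the adipocyte level, and in KO 435%. Ebf1 was at 5618 CPM in WT and 8647 CPM in KO ASPC nuclei, a log2 ratio of 0.62 (0.60 to 0.64), against 0.09 in adipocyte nuclei. With the median gauge share of the adipocyte level taken off, the ASPC log2 ratios were 1.22 for Ebf2 and 1.10 for Ebf1. Pparg went from 2384 to 556 CPM in ASPC nuclei, but its WT level, 45.1% of that in adipocyte nuclei, lay within the gauge range, and after the same subtraction 144 CPM remained in WT and 343 CPM in KO, which turns the direction. At the highest gauge share nothing was left of Pparg in WT ASPC nuclei.

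The ASPC nuclei of the libraries lay mostly in different subclusters, and the direction of the EBF genes depended on which were compared. An unnamed subcluster of 103 WT nuclei held 53.9% of the WT ASPC UMIs and had Pparg at 3656 CPM and Ppargc1a at 3208 CPM. Without it the log2 ratios were 0.45 for Ebf2 and 0.48 for Ebf1. Between the Areg-like subclusters (167 WT and 311 KO nuclei) they were 0.55 (0.45 to 0.64) and 0.39 (0.34 to 0.44). A single subcluster held at least 50 nuclei of both libraries (173 WT and 93 KO, median 1510 UMIs, with haemoglobin, Pf4 and Lyz2 among its leading genes). There both were lower in KO, Ebf2 at 2328 and 1294 CPM (-0.85) and Ebf1 at 6533 and 3598 CPM (-0.86).

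Among the ASPC subclusters that could be named, Ebf2 was highest in the ASC-like one (stem-like cells marked by Dpp4 and Pi16). Its level there was 3865 CPM over 485 KO nuclei, against 2402 CPM in an Areg-like (regulatory) subcluster of 311 KO nuclei. The 2 PreA-like (preadipocyte) subclusters of 359 and 327 KO nuclei had 2283 and 2134 CPM. Ebf1 followed the same order at the top, at 12810 CPM in the ASC-like subcluster and 7608 to 7786 CPM in the other 3. Pparg was at 731 and 640 CPM in the PreA-like subclusters, 28.8% and 25.2% of the KO adipocyte level and above all 8 gauge genes there. In the ASC-like subcluster it was at 247 CPM (9.76%), within the gauge, and in the Areg-like one at 337 CPM (13.3%), just above the highest gauge gene, so no order is read between these. Prdm16 was at 56.6 and 75.2 CPM in the PreA-like subclusters, above all 8 gauge genes, and at 21.3 CPM (8.55%) in the ASC-like one, within the gauge. Ppara stood at 6.81% of the KO adipocyte level in the first PreA-like subcluster, above all 8 gauge genes (highest 5.87%). In the second it stood at 4.53%, within the gauge. The single named WT subcluster, Areg-like with 160 nuclei, had 1651 CPM of Ebf2. Its Pparg level, 16.9% of that in WT adipocyte nuclei, lay within the gauge (9.99% to 20.5%). The other 5 ASPC subclusters were not named.

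**Figure D4:**
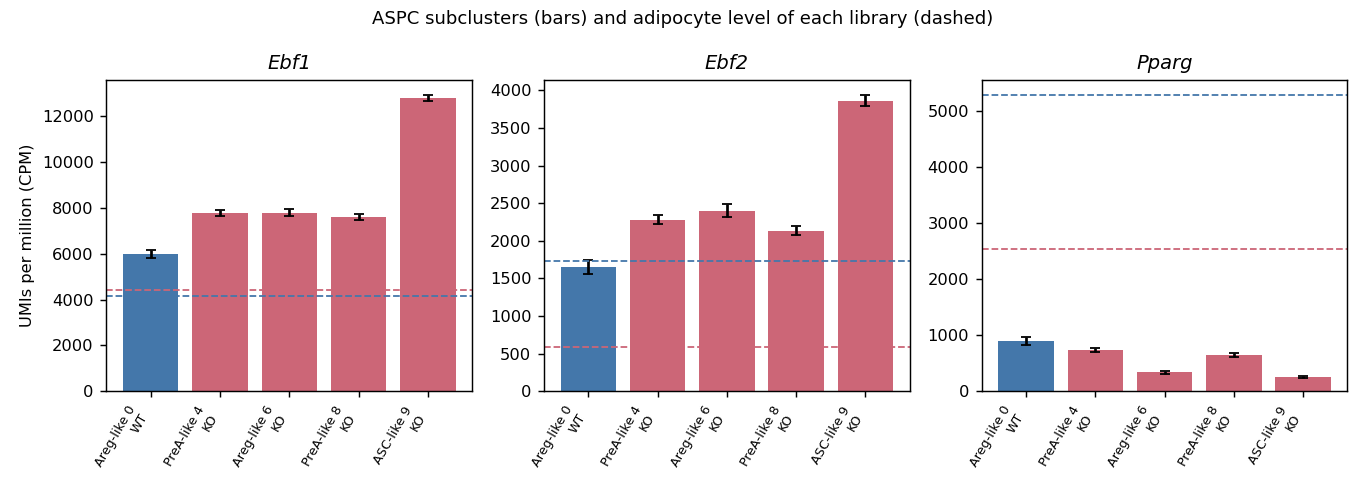
Level (CPM) of Ebf1, Ebf2 and Pparg in the 5 named ASPC subclusters (bars, blue for WT and red for KO nuclei, 95% counting intervals), with the adipocyte level of each library as a dashed line of the same colour. Ebf2 exceeds the KO adipocyte level of 585 CPM in all 5, and Pparg stays below the adipocyte level of either library.

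Endothelial nuclei held Pparg above the gauge in both libraries. Pparg was at 3071 CPM in WT and 1926 CPM in KO endothelial nuclei, 58.1% and 76.0% of the adipocyte level, against gauge maxima of 40.1% and 40.8%. The log2 ratio of -0.67 (-0.71 to -0.64) became 0.19 when the median gauge share was taken off (1397 CPM in WT and 1596 CPM in KO) and -0.09 at the highest gauge share. Prdm16 in endothelial nuclei was within the gauge in WT (30.3%, 219 CPM) and above it in KO (58.8%, 146 CPM). Ebf2 was below the highest gauge gene in both libraries, but its place within the gauge differed. In WT it was at 20.1%, above 1 gauge gene and below the gauge median of 31.6%. In KO it was at 36.2%, above 7 gauge genes and above the gauge median of 13.0%. Only Ucp1 stood higher in KO, at 40.8% from 94 UMIs. Ebf1 was at 94.6% and 100.2%, with 3938 and 4445 CPM.

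Mural nuclei held both EBF genes and some Pparg. Ebf2 was at 1528 CPM in WT and 1510 CPM in KO, a log2 ratio of -0.02 (-0.09 to 0.06), which in KO was 258% of the adipocyte level. With the median gauge share taken off, 674 CPM remained in WT and 1374 CPM in KO, a log2 ratio of 1.03. Ebf1 was at 4540 and 5970 CPM (0.40, and 0.99 after the same subtraction). Pparg stood at 64.7% (WT) and 63.6% (KO) of the adipocyte level, against gauge maxima of 58.5% and 43.0%. Prdm16 stood at 57.5% in WT, below the highest gauge gene, and at 77.8% in KO, above all 8.

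Prdm16 and Ppara were at background in immune nuclei. In KO, Prdm16 was at 16.1 CPM and Ppara at 51.0 CPM, both within the gauge, while Pparg at 642 CPM was 25.3% of the adipocyte level against a gauge maximum of 11.8%. Ebf1 was at 1655 CPM in WT and 537 CPM in KO (39.7% and 12.1% of the adipocyte level), a log2 ratio of -1.62 that became 0.62 with the median gauge share taken off (191 and 293 CPM). Ebf2 was at 548 and 116 CPM, and after the same subtraction nothing was left in WT and 84.2 CPM in KO. Rxra and Ppard, found in most tissues, were no lower in WT immune nuclei (44.6 and 74.3 CPM) than in WT adipocyte nuclei (19.9 and 62.3 CPM). In KO the order was the other way, at 37.5 and 72.0 CPM in immune nuclei and 53.9 and 132 CPM in adipocyte nuclei.

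**Figure D5:**
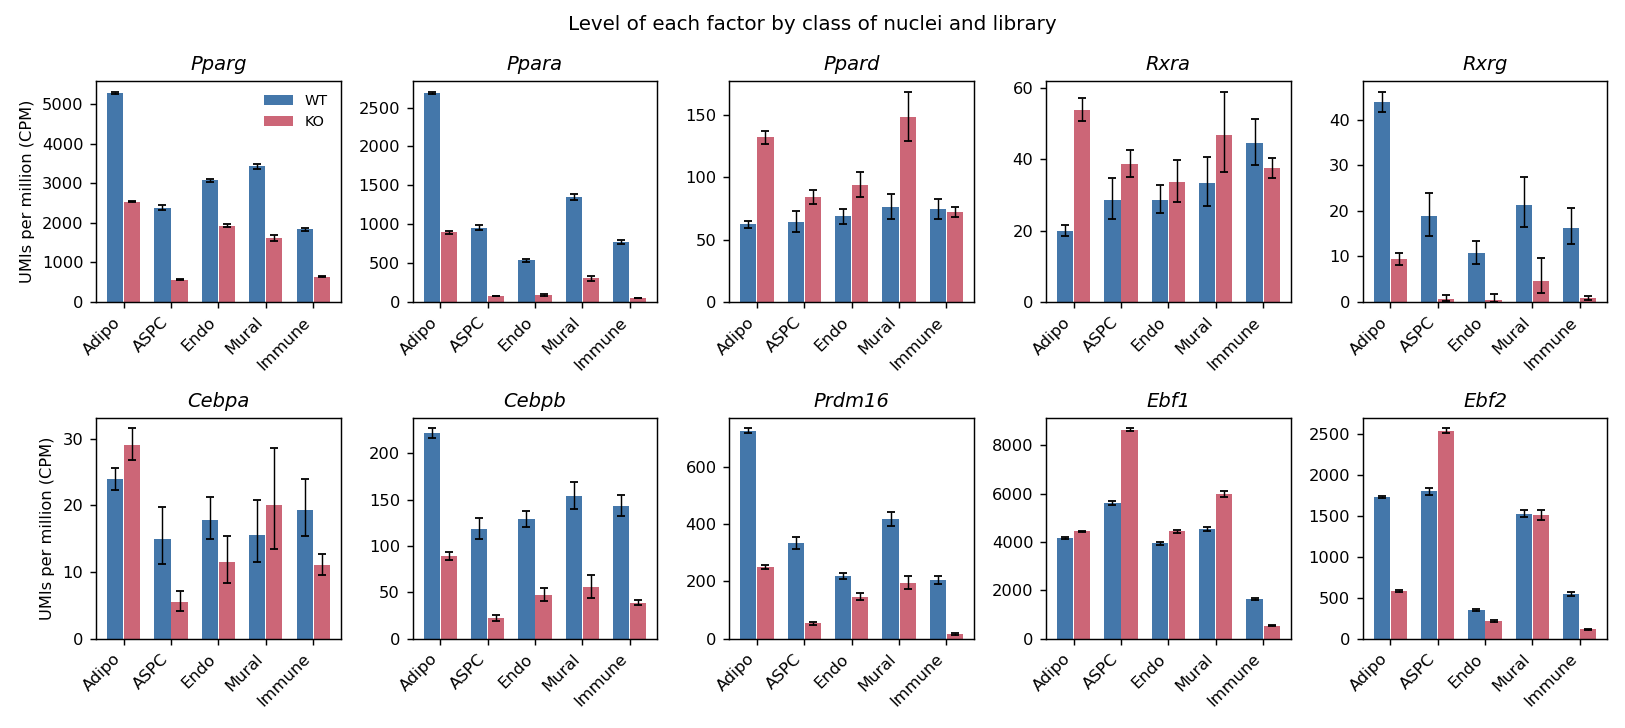
Level of each factor (CPM, each panel with its own axis from 0) in adipocyte, ASPC, endothelial, mural and immune nuclei of the WT (blue) and KO (red) libraries, with 95% counting intervals. In adipocyte nuclei Pparg, Ppara, Rxrg, Cebpb, Prdm16 and Ebf2 are lower in KO, while Ebf2 in ASPC nuclei goes from 1800 CPM in WT to 2542 CPM in KO.

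The genes these factors work with or on were read from 6 lists in the same adipocyte nuclei. The lists were chosen with earlier results of these data known. From the same libraries the paper had reported Ucp1, Cidea, Dio2 and Ppargc1a, all on the brown-selective list, as lower in KO. The shares below therefore describe the lists and are not independent support. Of 18 brown-selective genes, 14 (77.8%) were at least 2-fold lower in KO and 1 (5.56%) at least 2-fold higher, against 15.7% and 24.5% of all genes. Their median log2 ratio was -2.61 against 0.17 over all genes. Dio2, which activates thyroid hormone, was at 582 CPM in WT and 1.22 CPM in KO. Slc27a2, a fatty acid transport protein, was at 254 and 7.60 CPM. Lhx8 was the exception at 7.77 and 21.2 CPM, and Acot11 went from 211 to 159 CPM. Of 9 white-selective genes with enough UMIs, 0 were at least 2-fold lower and 4 (44.4%) at least 2-fold higher. These stand against 15.7% and 24.5% of all genes, and the median of the list was 0.88. Lep, the gene of leptin, was at 14.1 and 74.9 CPM and Hoxc8 at 0.685 and 3.83 CPM, while Nnat (151 and 81.1 CPM) and Nnmt (93.1 and 57.5 CPM) were lower within 2-fold.

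Of 18 known targets of PPARG, 4 (22.2%) were at least 2-fold lower and 2 (11.1%) at least 2-fold higher, against 15.7% and 24.5% of all genes, with a median of -0.30. These shares are not far enough from those of all genes to be read as a result about the targets. Pck1, an enzyme of glyceroneogenesis, was at 1980 CPM in WT and 452 CPM in KO, and Gpd1, which supplies glycerol 3-phosphate, at 1728 and 501 CPM. Plin2, a lipid droplet coat protein, was at 608 and 1636 CPM. Of 16 PPARA targets of fatty acid oxidation, 6 (37.5%) were at least 2-fold lower and 1 (6.25%) at least 2-fold higher, with a median of -0.93. Acadvl, which starts the oxidation of long chains, was at 95.2 and 25.4 CPM and Plin5 at 121 and 37.9 CPM, while Acot2 was at 7.48 and 15.4 CPM.

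Of 22 coregulators, 4 (18.2%) were at least 2-fold lower, near the 15.7% of all genes, and 1 (4.55%) at least 2-fold higher, below the 24.5% of all genes (median 0.14). Ppargc1a, the coactivator PGC-1α, was at 5218 CPM in WT and 482 CPM in KO, and Ppargc1b at 2704 and 656 CPM. Nrip1, a corepressor of thermogenic genes, was at 282 and 897 CPM, and Tle3, a corepressor that opposes PRDM16, at 67.7 and 135 CPM. Of 29 other transcription factors of adipocytes, 6 (20.7%) were at least 2-fold lower and 9 (31.0%) at least 2-fold higher (median 0.32), both near the shares of all genes. Irf4, a partner of PGC-1α in thermogenesis, was at 98.9 and 8.27 CPM and Foxo1 at 1425 and 509 CPM. Tcf7l1 was at 45.3 and 226 CPM and Tbx15 at 18.7 and 70.6 CPM.

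Genes with the most similar profile were sought over 11 combinations of class and library with at least 100 nuclei, among 12837 genes with at least 500 UMIs, by Euclidean distance of mean-centred log2(CPM + 1). These combinations share the 2 libraries and their free RNA. Nearest to Ppara were Lncbate1 (distance 0.562), Adra1a (0.682) and Gm50100 (0.973), and nearest to Rxrg were Ppargc1b (1.40), Gldn (1.48) and Gk (1.49). Nearest to Prdm16 were Slc2a4 (1.34), Nrbp2 (1.59) and Mpzl2 (1.63), and to Pparg Fam57b (0.784), Pnpla2 (0.885) and Tob1 (0.909). Ebf2 was nearest to Ntrk2 (1.05), Irs1 (1.42) and Angpt1 (1.55), and Ebf1 to Col4a1 (0.951), Cped1 (1.02) and Rnf144a (1.06). Cebpb was nearest to Prelid3b (0.649), Idh3b (0.654) and Mdh1 (0.660), and Cebpa to Tpi1 (0.815), Dnajb9 (0.865) and Prdx3 (0.939). Ppard was nearest to Atxn7l3b (0.569), Gm38115 (0.591) and Taf7 (0.682), and Rxra to Zswim4 (0.602), Slc35b4 (0.641) and Lrwd1 (0.641). Among the 10 factors themselves the closest pairs were Ppard with Rxra (0.894), Pparg with Cebpb (1.40) and Ppara with Rxrg (1.62).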

How the data were processed

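Nuclei of brown adipose tissue were profiled by droplet 3′ sequencing, 1 library per genotype; the deposited matrices hold raw UMI counts. The submitters' processing notes name Cell Ranger 5.0.0, Seurat 3.1.1 and mm10, and the methods give another version of Cell Ranger. Nuclei were kept with at least 200 genes, log gene and UMI totals within 3 scaled median absolute deviations of the library median, and at most 10% mitochondrial UMIs. Classes were called per library by a multinomial mixture over marker UMIs (7 classes, at least 5 marker UMIs, posterior of 0.9, 20 rounds), a scheme settled after simpler ones lost most WT adipocyte nuclei. Counts were summed per class and library. Ratios had exact conditional binomial intervals, levels exact Poisson and shares exact binomial (Clopper-Pearson) intervals (95%, counting error only). No test across genotypes was possible. A gene at 0 was set at 3 counts, and ratios of all genes needed 50 UMIs over both libraries. Scrublet marked 0 WT and 2347 KO nuclei, so it did not work in WT; marked nuclei were kept, and an alternative left out the top 10% of scores. Clustering used scanpy 1.11.5 (2000 variable genes, 30 components, 15 neighbours, Leiden resolution 0.5). A subcluster was named where at least 3 markers of 1 list were 1.5-fold higher and its leading genes were not those of another cell type. Genes named are the 10 members, Srsf1, markers, gauge genes, the 2 highest and 2 lowest ratios per list and the 3 most similar genes per member; Rxrb was added after its value was seen. Some genes that this rule names are not reported here. The members and lists were chosen with earlier results of these data known. The code for ratios and intervals was run on simulated Poisson counts. These held no spread between nuclei, free RNA or library effect, so the run does not bear on those.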

Additional observations from a re-analysis of the deposited data

Results flagged for a closer look

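A sign in adipocyte nuclei opposite to that in another class, with neither counting interval reaching 0, was found for 4 of the members. With 1 library per genotype these differences between classes were not tested. Ebf2 was lower in KO adipocyte nuclei (-1.57) and higher in ASPC nuclei (0.50). Cebpa was higher in KO adipocyte nuclei (0.28) and lower in ASPC (-1.47), endothelial (-0.63) and immune nuclei (-0.80). In WT its levels in those 3 classes were 62.7%, 74.6% and 80.7% of the adipocyte level, and 52, 129 and 82 UMIs lay behind them. Ebf1 was slightly higher in KO adipocyte nuclei (0.09) and lower in immune nuclei (-1.62), where the WT level lay within the free RNA gauge range (39.7% against a maximum of 42.3%). Rxra was higher in KO adipocyte nuclei (1.44) and lower in immune nuclei (-0.25), with 189 WT and 670 KO UMIs. With the median gauge share of the adipocyte level taken off, Ebf2 in ASPC nuclei stood at 1.22, Cebpa at -0.70 in ASPC (0.02 at the highest gauge share), -0.41 in endothelial and -0.20 in immune nuclei, and Rxra in immune nuclei at -0.12. Ebf1 in immune nuclei turned to 0.62 (191 CPM in WT and 293 CPM in KO), so its opposite sign did not hold. In the 1 ASPC subcluster with at least 50 nuclei of both libraries, Ebf2 was lower in KO (-0.85), as in adipocyte nuclei.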

How the results depend on the processing

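Settings chosen after seeing the data are the 3 depth bins of adipocyte nuclei, the adipocyte and ASPC subclusters taken alone or left out and the subtraction of gauged free RNA. The 6 members at least 2-fold lower in KO adipocyte nuclei stayed 4 to 6 in number over 17 alternatives, 4 being the count in white-like subclusters alone. The 2 members at least 2-fold higher became 1 with ratios centred on the median of all genes, with the endothelial level subtracted, in the shallowest depth bin, in white-like subclusters alone and in the other subclusters alone. The contrast of brown-selective with general factors (-1.18) kept its sign in 16 alternatives. It was -1.02 as a mean over nuclei, -1.72 with the endothelial level subtracted, -0.82, -1.0 and -1.33 in the shallowest, middle and deepest bin, -1.29 in white-like and -0.77 in other subclusters. The log2 ratio of Pparg in ASPC nuclei (-2.10) turned to 1.25 when free RNA at the median gauge was subtracted, the 1 reversal among 14 alternatives. It was -0.69 without the WT subcluster rich in Ppargc1a and -1.35 between the Areg-like subclusters. In the subcluster with at least 50 nuclei of both libraries it was -0.04 (-0.30 to 0.21). In ASPC nuclei Ebf2 ranged from -0.85 to 1.22 and Ebf1 from -0.86 to 1.32, both below 0 in 1 of 15 alternatives, the subcluster that holds at least 50 nuclei of both libraries. In adipocyte nuclei Pparg ranged from -1.87 to -0.77, Ppara from -2.01 to -1.09, Prdm16 from -2.30 to -1.24, Ebf2 from -1.89 to -1.51, Cebpb from -1.49 to -0.99, Rxrg from -2.62 to -1.75, Ppard from 0.77 to 1.35 and Rxra from 0.60 to 1.59. Ebf1 (-0.13 to 0.21) and Cebpa (-0.10 to 1.53) changed sign. With the endothelial level subtracted, no value was left for Ppard, Rxra or Ebf1, and the 1 member called higher was Cebpa. The cause was not tested. Raising the minimum to 200 UMIs changed no list count by more than 1 gene. Subclusters of adipocyte nuclei numbered 6 at resolution 0.3 and 13 at 1.0, against 10. Leaving out a replicate was not possible with 1 library per genotype. No paired analysis was possible because each genotype has 1 library. Depth limits Cebpa and Rxrg most, with 570 and 184 UMIs in KO adipocyte nuclei.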
